A study of Mus musculus with 9 samples.

Results

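The semaphorins, plexins and neuropilins are a family of guidance ligands with their receptors and co-receptors, followed here through a mouse mammary epithelial line named Comma-1D. Its 31 members were taken by gene symbol from the 54281 genes in the files. The members, lists and tests were chosen with earlier results of these data known, which bears on the shares of called members below. There are 20 semaphorin ligands (7 of class 3, 6 of class 4, 2 of class 5, 4 of class 6 and 1 of class 7), 9 plexins (4 of subfamily A, 3 of B, 1 of C and 1 of D) and 2 neuropilins.

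Semaphorins are signals that steer cells and growing axons, mostly by repulsion. Class 3 members are secreted, classes 4 to 6 span the membrane, and the class 7 member is held on it by a lipid anchor. Plexins are the main semaphorin receptors: their cytoplasmic part acts on small GTPases of the R-Ras and Rap group, which changes the cytoskeleton and integrin adhesion. Most class 3 ligands reach class A plexins through a neuropilin, which has no signalling domain of that kind and also binds vascular endothelial growth factors. In epithelia the same proteins are known for effects on cell movement, branching and vessel growth around tumours.

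RNA came from cells sorted on the surface proteins Sca-1 and EpCAM into 3 populations, named bi (both high), L (Sca-1 low, EpCAM high) and B (Sca-1 high, EpCAM low). Each population was sampled in 3 arms: transduced with the MYC activated oncogene, transduced with the Her2 activated oncogene, and control, so there are 9 libraries with 1 for each population and arm. All groups share the line, which is kept in a medium with serum, EGF and insulin, and an RNA kit of one of 2 makes that the labels do not tie to libraries. The labels do not state the species of the transgenes, a vector in the control cells, separate cultures for the arms, or a batch, so an effect of transduction and one of the oncogene cannot be told apart. Because no population and arm was repeated, populations were compared over the 3 arms and arms over the 3 populations, and p-values measure only the spread among these 9 libraries.

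Libraries held 46.9 to 98.9 M estimated reads. Levels are CPM, the reads of a gene per M reads of its library, scaled between libraries by TMM. Epcam read 252 to 336 CPM in bi, 331 to 610 CPM in L and 0.183 to 0.764 CPM in B cells, and Ly6a, which encodes Sca-1, read 15.9 to 139 CPM in bi, 2.37 to 12.8 CPM in L and 19.5 to 112 CPM in B cells. Myc read 188 to 285 CPM in the MYC libraries, 68.2 to 169 CPM in the Her2 libraries and 83.3 to 114 CPM in control. Erbb2, the gene of Her2, read 189 to 651 CPM in the Her2 libraries and 53.3 to 88.9 CPM in control, as far as the reads of a transgene of unstated species were counted there. Bulk RNA cannot tell fewer cells of a type from less RNA per cell.

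Sums of marker genes of several cell types moved with the populations. The 13 luminal markers summed to 588 to 759 CPM in bi, 1090 to 2990 CPM in L and 14.9 to 16.1 CPM in B cells. The 9 basal and myoepithelial markers summed to 4020 to 6570 CPM in bi, 1960 to 4120 CPM in L and 1920 to 4170 CPM in B cells. Most of that sum was Krt5, Krt14, Krt17 and Trp63. Krt17 read 645 to 1300 CPM in bi, 333 to 467 CPM in L and 141 to 362 CPM in B cells. Acta2 read 13 to 105 CPM in bi, 1.33 to 12.3 CPM in L and 15.5 to 262 CPM in B cells. In L against B edgeR gave 3 of the 9 as lower at an adjusted p under 0.05 and none as higher. That is 33.3%, against 20.8% of all genes tested, and the median log2 fold change was -0.61. The 9 fibroblast markers summed to 47.2 to 86 CPM in bi, 28.6 to 41.7 CPM in L and 122 to 223 CPM in B cells. The 9 neuron and glia markers summed to 42.3 to 67.2 CPM in bi, 47.8 to 112 CPM in L and 1.87 to 7.11 CPM in B cells, and 5 of the 9, Rbfox3 and Snap25 among them, lay under 1 CPM in every library. Most of that sum in bi and L cells was Map2 and Tubb3, with Map2 at 16.8 to 35 CPM in bi and 34.8 to 105 CPM in L cells. The 10 endothelial markers summed to 47.5 to 72.7 CPM in bi, 44.9 to 91.3 CPM in L and 16.4 to 38.4 CPM in B cells, and 7 of them, Cdh5, Tek and Kdr among them, lay under 1 CPM in every library. Flt1 alone read 40.5 to 66.8 CPM in bi, 40.3 to 85.9 CPM in L and 12.1 to 33 CPM in B cells, most of that sum. The 10 leukocyte markers summed to at most 9.23 CPM in any library, and 9 of them lay under 1 CPM in all. The part of these marker differences in the population results below was not tested.

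Of the 31 members, 19 were read at 1 CPM or more in every library. Another 4 were nearly silent: Sema3g, Sema5b, Plxnb3 and Plxnc1 stayed under 1 CPM in all 9 libraries. To compare genes with each other, CPM was divided by the length in kilobases of the longest coding transcript. Plxnb2, the receptor of Sema4c and Sema4g, stood highest on this scale at 72.8 ± 12.4 CPM per kilobase (mean ± SD, n = 9 libraries). It was followed by Nrp2 at 44.7 ± 22.3 and by the secreted ligand Sema3c at 34.8 ± 20.8 CPM per kilobase. Sema4b, Sema3f and Plxna1 came next at 30.8, 27.6 and 24.5 CPM per kilobase. From Sema3c down, each of these means lay within 1 SD of the mean next above it.

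Plxnb2 was the first plexin per length in each of the 9 libraries, with 49.9% to 66% of the plexin sum. It read 476, 350 and 440 CPM in bi MYC, Her2 and control cells, 386, 508 and 479 CPM in L MYC, Her2 and control cells, and 576, 597 and 444 CPM in B MYC, Her2 and control cells. The range from lowest to highest library was 1.7-fold, the narrowest of the 31, and Plxnb2 passed the test in no comparison. Plxna1, a receptor for neuropilin-bound class 3 ligands, held 14.4% to 26.9% of the plexin sum.

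The leading ligand differed between libraries. Sema3c held 16.7% to 26.6% of the ligand sum per length in bi, 10.8% to 18% in L and 29.1% to 43.9% in B cells. The first ligand was Sema3f in bi MYC, L Her2 and L control cells, Sema4b in bi Her2 and B Her2 cells, Sema3c in bi control, B MYC and B control cells, and Sema6a in L MYC cells. Sema6a, a transmembrane ligand of Plxna2 and Plxna4, held 4.76% to 9.6% of the sum in bi, 3.55% to 19% in L and 0.371% to 0.611% in B cells. These shares have no test.

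**Figure D1:**
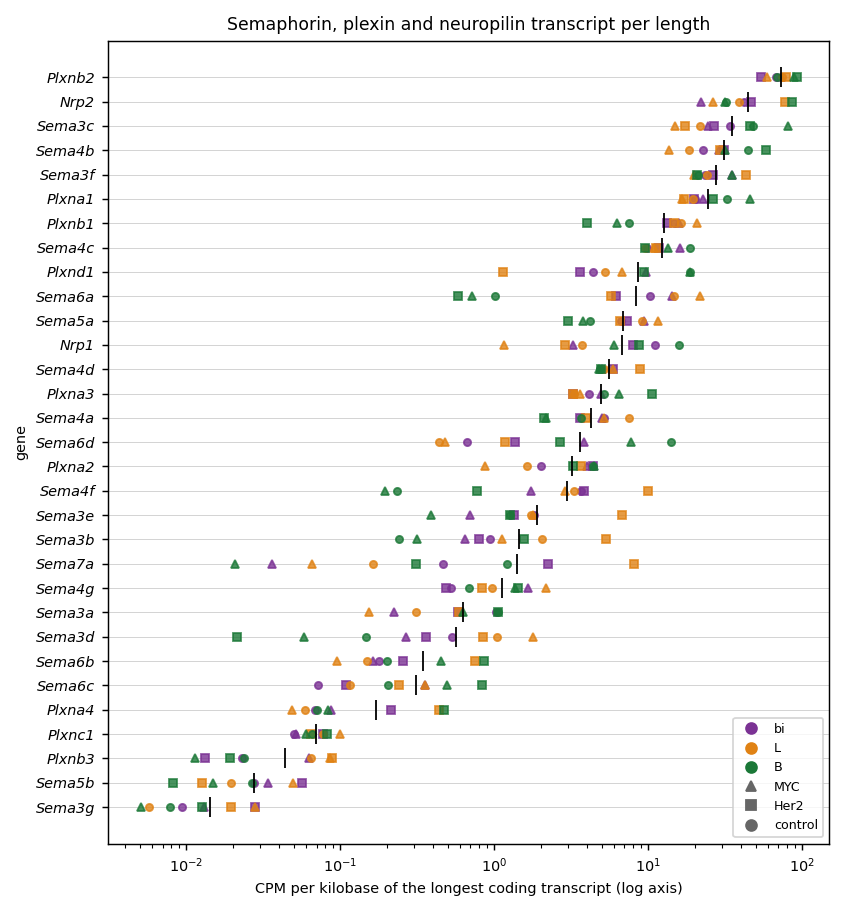
Level of each of the 31 members as CPM per kilobase of its longest coding transcript, on a log axis. Colours mark the populations bi, L and B, shapes mark the arms MYC, Her2 and control, and the black tick is the mean of 9 libraries. Plxnb2, Nrp2 and Sema3c lead, and Sema3g is last at 0.0143 CPM per kilobase.

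Most calls of members lay in the comparisons of bi and L against B. A gene counts as called, and is said to be higher or lower, where edgeR's quasi-likelihood test gave a Benjamini-Hochberg adjusted p under 0.05 over the 23834 genes tested. Of the 31 members 30 were tested, and Sema3g fell below the filter on low counts. In L against B, 17 of the 30 were called, which is 56.7%, against 20.8% of all genes tested. Of them 9 were higher and 8 lower, against 11.5% and 9.26% of all genes. In bi against B, 10 were called, or 33.3%, against 13% of all genes, with 6 higher and 4 lower against 7.88% and 5.11%. In bi against L, 1 was called, or 3.33%, against 0.751% of all genes, and it was higher, against 0.495% higher and 0.256% lower of all genes. The members' median log2 fold change was 0.01 in L against B, -0.27 in bi against B and -0.21 in bi against L, beside 0.04, 0.03 and 0 over all genes tested. The B libraries enter both comparisons against B. Below, a call is said to be lost for fits with 1 library left out, unless an arm is named. Not every loss with a whole arm or population left out is named. Among the called members, limma on log2(TPM + 1) did not call Sema3d, Sema4a, Sema5a, Sema6c, Plxna1 and Plxnd1 in bi against B or Sema3a, Sema3e, Sema4a and Plxna3 in L against B, did not test Plxnb3, and called no member in bi against L. A fit without the arm as a block did not call Sema4a, Sema6c, Plxna1 and Plxnd1 in bi against B, Sema3a, Sema3b, Sema3e, Sema4a and Plxnd1 in L against B, or Nrp1 in bi against L. With offsets from effective lengths, Sema6c in bi against B and Plxnb3 in L against B were not called. With only the 6 libraries of both groups, Sema4a and Sema6c in bi against B were not called.

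**Figure D2:**
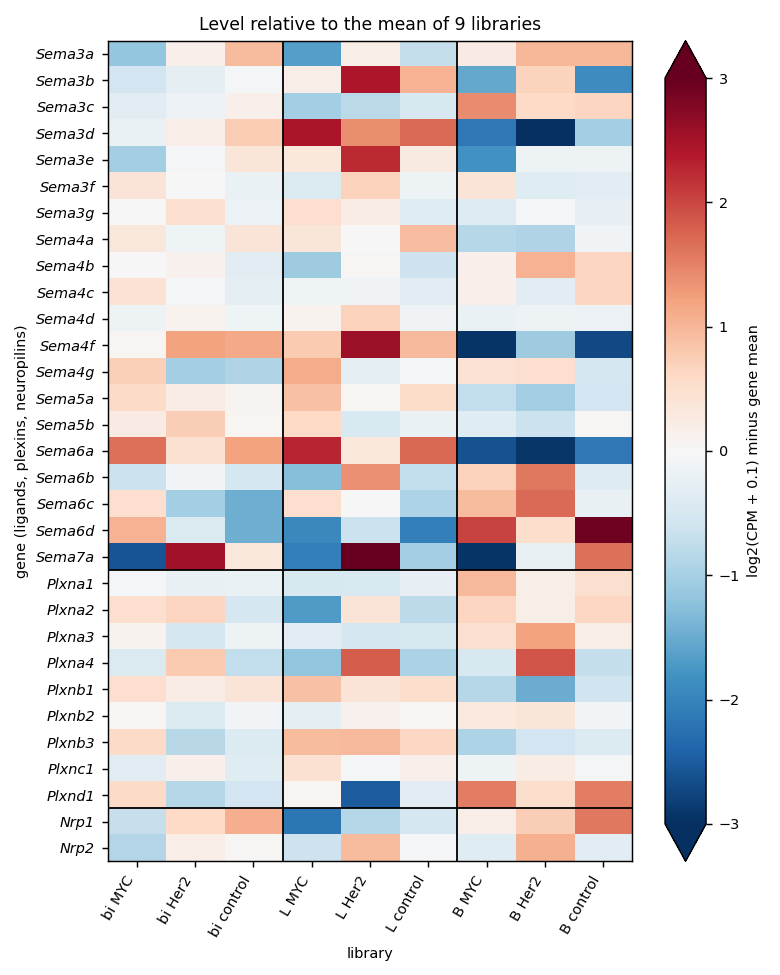
Level of each member in each library as log2(CPM + 0.1) minus the gene's mean over 9 libraries, with ligands above, plexins in the middle and neuropilins below. Sema6a and Sema4f lie above their means in all bi and L columns and are blue in all B columns, with Sema4f near its mean in bi MYC cells. Sema6d is red in all B columns.

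Among the membrane-bound ligands, Sema6a, Sema4f, Sema5a and Sema4a were higher in both EpCAM-high populations than in B. Sema6a read 97.1, 42.5 and 70.8 CPM in bi MYC, Her2 and control cells, 149, 39 and 101 CPM in L MYC, Her2 and control cells, and 4.94, 3.97 and 6.91 CPM in B MYC, Her2 and control cells. The B libraries lay far below the other 6, and the Her2 library was the lowest in each population. EdgeR gave a log2 fold change of 3.65 (SE 0.29, adjusted p = 5.63e-05) in bi against B and 4.02 (SE 0.30, adjusted p = 2.2e-05) in L against B.

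Sema4f, a class 4 ligand known from neurons and glia, read 7.12, 15.7 and 15 CPM in bi MYC, Her2 and control cells, 11.7, 40.5 and 13.4 CPM in L MYC, Her2 and control cells, and 0.8, 3.16 and 0.959 CPM in B MYC, Her2 and control cells. No B library reached the lowest of the others, and the Her2 library was the highest in each population. The log2 fold change was 3.17 (SE 0.34, adjusted p = 0.000309) in bi against B and 3.77 (SE 0.34, adjusted p = 6.34e-05) in L against B. For both genes each of the 19 alternative fits of these 2 comparisons kept the call.

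Sema5a, whose extracellular part carries thrombospondin repeats, read 101, 78.4 and 71.5 CPM in bi MYC, Her2 and control cells, 124, 70.8 and 98.7 CPM in L MYC, Her2 and control cells, and 40.5, 32.7 and 45 CPM in B MYC, Her2 and control cells. The B libraries were the 3 lowest and did not overlap with bi or L. This corresponds to a log2 fold change of 1.08 (SE 0.19, adjusted p = 0.00548) in bi against B and 1.29 (SE 0.19, adjusted p = 0.00125) in L against B. Sema4a, which can bind plexins of classes B and D, read 16, 11.6 and 16.6 CPM in bi MYC, Her2 and control cells, 16.5, 12.6 and 24.1 CPM in L MYC, Her2 and control cells, and 7, 6.75 and 11.8 CPM in B MYC, Her2 and control cells. Its 3 L libraries all lay above B (log2 difference 1.05, SE 0.20, adjusted p = 0.00511), while bi Her2 cells lay just below B control cells (0.82, SE 0.20, adjusted p = 0.0255). The Sema4a call in bi against B was lost without B MYC, B Her2, L control, bi MYC or bi Her2 cells, where the log2 fold change ran from 0.68 to 0.87. Its call in L against B was lost without the MYC arm (0.97).

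Sema4b and Sema6d were lower in L than in B, and Sema6c was lower in bi than in B. Sema4b, a class 4 ligand, read 113, 122 and 89.7 CPM in bi MYC, Her2 and control cells, 53.9, 115 and 72.8 CPM in L MYC, Her2 and control cells, and 125, 231 and 174 CPM in B MYC, Her2 and control cells. All B libraries lay above the others. The difference was called in L against B (log2 difference -1.16, SE 0.21, adjusted p = 0.00415) and not in bi against B (-0.66, SE 0.21, adjusted p = 0.0737).

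Sema6d, a ligand of Plxna1, read 24.8, 8.81 and 4.3 CPM in bi MYC, Her2 and control cells, 3.06, 7.58 and 2.81 CPM in L MYC, Her2 and control cells, and 49.4, 17.3 and 90.4 CPM in B MYC, Her2 and control cells. Its log2 fold change was -3.51 in L against B (SE 0.82, adjusted p = 0.0142) and -2.21 in bi against B, where the test was not passed (SE 0.78, adjusted p = 0.0987). In L against B it became -2.23 without B control cells, -4.35 without B Her2 cells and -4.38 without L Her2 cells, and the call was lost without L control cells (-2.97). Sema6c, of the same class, read 1.42, 0.435 and 0.288 CPM in bi MYC, Her2 and control cells, 1.43, 0.967 and 0.468 CPM in L MYC, Her2 and control cells, and 1.99, 3.37 and 0.817 CPM in B MYC, Her2 and control cells. It was lower in bi than in B (log2 difference -1.65, SE 0.45, adjusted p = 0.0388), with overlapping groups. That call was lost without any of B control, B Her2, L control, bi control or bi Her2 cells (-1.75 to -1.09), and without the Her2 arm (-0.95).

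**Figure D3:**
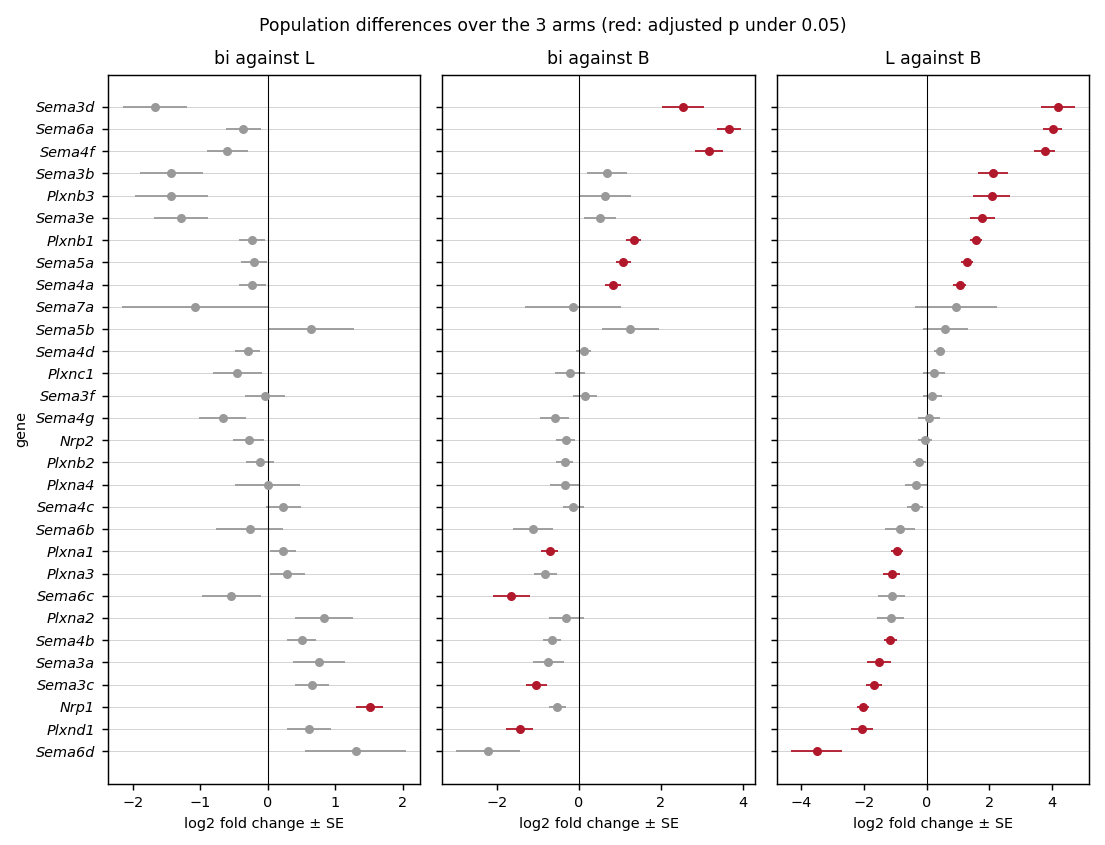
Log2 fold change with its standard error for the 30 tested members in bi against L, bi against B and L against B, with called differences in red, ordered by L against B. Sema3d, Sema6a and Sema4f lead the rises in L against B, Sema6d is at the bottom, and Nrp1 is the one called difference in bi against L.

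The secreted class 3 ligands split in direction. Sema3c, which signals through both neuropilins and Plxnd1, read 135, 147 and 185 CPM in bi MYC, Her2 and control cells, 82.2, 94.9 and 119 CPM in L MYC, Her2 and control cells, and 444, 252 and 263 CPM in B MYC, Her2 and control cells. The L libraries were the lowest and B the highest with no overlap. The log2 fold change was -1.04 (SE 0.26, adjusted p = 0.0261) in bi against B and -1.69 (SE 0.26, adjusted p = 0.0015) in L against B. The bi against B call was lost without B MYC (-0.64), bi MYC (-0.81), bi control (-1.15) or bi Her2 cells (-1.09).

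Sema3a, the prototype repellent that binds Nrp1, read 1.32, 3.46 and 6.07 CPM in bi MYC, Her2 and control cells, 0.914, 3.5 and 1.85 CPM in L MYC, Her2 and control cells, and 3.7, 6.27 and 6.3 CPM in B MYC, Her2 and control cells. It was lower in L than in B, by a log2 fold change of -1.51 (SE 0.38, adjusted p = 0.0188), and bi spanned both. The call was lost without B MYC, L control or L MYC cells (-1.41 to -1.19).

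Sema3d, Sema3e and Sema3b were higher in L than in B. Sema3d, a ligand of the vascular Plxnd1 pathway with neuropilin-1, read 1.68, 2.26 and 3.37 CPM in bi MYC, Her2 and control cells, 11.2, 5.32 and 6.57 CPM in L MYC, Her2 and control cells, and 0.366, 0.134 and 0.923 CPM in B MYC, Her2 and control cells. In CPM the 3 populations did not overlap: L was highest and B lowest. In TPM bi MYC cells, at 0.545, lay below B control cells, at 0.694. The B Her2 value rests on an estimated 6.6 reads. On the log2 scale the difference in Sema3d was 2.53 (SE 0.51, adjusted p = 0.0111) in bi against B and 4.2 (SE 0.54, adjusted p = 0.000543) in L against B. Without B control cells these became 3.33 and 4.9, both still called. The bi against B call was lost without the Her2 arm (1.96).

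Sema3e, which binds Plxnd1 without a neuropilin, read 4.77, 9.24 and 12.5 CPM in bi MYC, Her2 and control cells, 12.2, 46.2 and 11.8 CPM in L MYC, Her2 and control cells, and 2.67, 8.68 and 8.72 CPM in B MYC, Her2 and control cells. L Her2 cells stood far above the rest. In L against B the log2 fold change was 1.78 (SE 0.41, adjusted p = 0.0125), and the call was lost without L Her2 (1.29), B MYC (1.6) or B Her2 cells (1.65). Sema3b, a ligand studied as a tumour suppressor, read 2.21, 2.7 and 3.2 CPM in bi MYC, Her2 and control cells, 3.81, 18.1 and 6.98 CPM in L MYC, Her2 and control cells, and 1.07, 5.35 and 0.817 CPM in B MYC, Her2 and control cells. B Her2 cells lay above L MYC cells, so the groups overlapped in L against B (log2 difference 2.12, SE 0.48, adjusted p = 0.012). The value was 2.76 without B Her2 cells, and the call was lost without L Her2 cells (1.97).

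The class 3 genes include neighbours on the chromosomes. On mouse chromosome 5 Sema3d and Sema3a lie 536 kb apart with no coding gene between them, Sema3e follows Sema3a at 423 kb, and Sema3c lies 3.32 Mb beyond Sema3e, all on the plus strand of mm10. In L against B, Sema3d and Sema3e were higher and Sema3a and Sema3c lower, so genes next to each other there differed in direction. On chromosome 9 Sema3b and Sema3f lie 72.3 kb apart on the minus strand. Sema3f, a ligand of Nrp2, ran from 67.5 to 146 CPM and was called in no comparison, with a log2 fold change of 0.18 (SE 0.30) in L against B.

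Among the receptors, Plxnb1 was higher outside B and plexins A1, A3 and D1 were lower in L. Plxnb1, the receptor of Sema4d that pairs with the kinases Met and Erbb2, read 137, 114 and 127 CPM in bi MYC, Her2 and control cells, 179, 127 and 141 CPM in L MYC, Her2 and control cells, and 54, 34.7 and 64.6 CPM in B MYC, Her2 and control cells. The Her2 library was the lowest of each population, and no B library reached the others. The log2 fold change was 1.33 (SE 0.19, adjusted p = 0.00192) in bi against B and 1.57 (SE 0.19, adjusted p = 0.000425) in L against B, and each of the 19 alternative fits kept both calls. Its ligand Sema4d ran from 21.4 to 39.7 CPM and was called in no comparison.

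Plxna1 read 206, 180 and 182 CPM in bi MYC, Her2 and control cells, 150, 154 and 176 CPM in L MYC, Her2 and control cells, and 414, 239 and 294 CPM in B MYC, Her2 and control cells. All B libraries lay above the other 6. Fitted over the arms, the log2 fold change was -0.72 (SE 0.20, adjusted p = 0.0396) in bi against B and -0.95 (SE 0.20, adjusted p = 0.00768) in L against B. The bi against B call was lost with 7 of the 9 libraries left out in turn (all but B Her2 and L MYC), where the log2 fold change ran from -0.78 to -0.5. The L against B call was lost without the MYC arm (-0.69).

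Plxna3, a receptor for Sema3f with Nrp2, read 34.4, 22.4 and 28.6 CPM in bi MYC, Her2 and control cells, 25, 22.4 and 22.8 CPM in L MYC, Her2 and control cells, and 44.5, 73.3 and 36 CPM in B MYC, Her2 and control cells. L and B did not overlap, and the log2 fold change was -1.11 (SE 0.27, adjusted p = 0.0158) in L against B, which was lost without L Her2 cells (-0.95). Plxnd1, the receptor of Sema3e, read 67.2, 24.9 and 30.1 CPM in bi MYC, Her2 and control cells, 46.5, 7.89 and 36.1 CPM in L MYC, Her2 and control cells, and 129, 64.4 and 130 CPM in B MYC, Her2 and control cells. The Her2 library was the lowest of each population, and bi MYC cells lay above B Her2 cells. The log2 fold change was -1.45 (SE 0.33, adjusted p = 0.0183) in bi against B and -2.06 (SE 0.34, adjusted p = 0.00216) in L against B. The first of these calls was lost without B control, B Her2, bi control or bi MYC cells (-1.5 to -1.13).

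Plxnb3, a receptor of Sema5a, is barely read here: 0.375, 0.0802 and 0.139 CPM in bi MYC, Her2 and control cells, 0.52, 0.528 and 0.39 CPM in L MYC, Her2 and control cells, and 0.0686, 0.115 and 0.142 CPM in B MYC, Her2 and control cells. The L libraries were the 3 highest (log2 fold change against B 2.07, SE 0.59, adjusted p = 0.0326), and the call was lost without any one L library, B MYC or B Her2 cells (1.59 to 2.26).

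**Figure D4:**
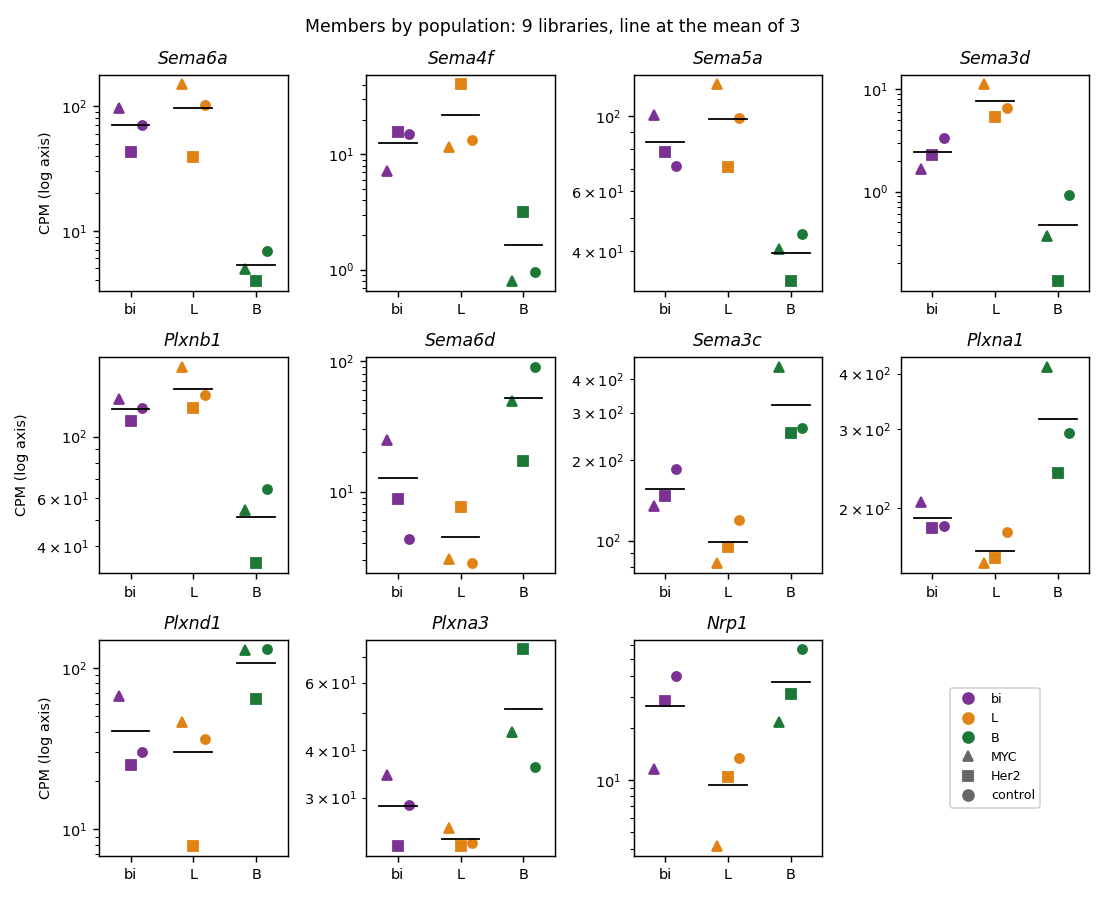
CPM (log axes, one scale per panel) of 11 members called in L against B, by population, with colours for bi, L and B, shapes for the MYC, Her2 and control arms, and a line at the mean of 3 libraries. B cells are the lowest for Sema6a, Sema4f, Sema5a, Sema3d and Plxnb1 and the highest for Sema6d on average, Sema3c, Plxna1, Plxnd1 on average, Plxna3 and Nrp1 on average.

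The 2 co-receptors differed from each other. Nrp1 read 11.6, 28.4 and 40 CPM in bi MYC, Her2 and control cells, 4.14, 10.4 and 13.3 CPM in L MYC, Her2 and control cells, and 21.6, 31.5 and 56.7 CPM in B MYC, Her2 and control cells. In each arm the order was L lowest, then bi, then B. The fitted difference was, in log2 units, -2.03 (SE 0.20, adjusted p = 0.000119) in L against B, 1.51 (SE 0.20, adjusted p = 0.0159) in bi against L and -0.53 (SE 0.20, adjusted p = 0.117) in bi against B, where the test was not passed. Nrp1 was the one member called in bi against L, with the bi MYC library below L control cells, and that call was lost without L MYC or bi Her2 cells (1.43 each).

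Nrp2 read 147, 312 and 281 CPM in bi MYC, Her2 and control cells, 178, 523 and 263 CPM in L MYC, Her2 and control cells, and 212, 574 and 214 CPM in B MYC, Her2 and control cells. Its populations overlapped in each population comparison, and none was called. Per kilobase, Nrp2 exceeded Nrp1 6.78-, 5.88- and 3.76-fold in bi MYC, Her2 and control cells, 23-, 26.9- and 10.6-fold in L MYC, Her2 and control cells, and 5.25-, 9.75- and 2.02-fold in B MYC, Her2 and control cells. This ratio was lowest in the control library of each population and has no test.

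Between arms, most calls of members lay in MYC against Her2. In MYC against Her2, 7 of 30 were called, or 23.3%, against 4.57% of all genes tested. Of them 2 were higher and 5 lower, against 2.44% and 2.13% of all genes, and the median log2 fold change was 0.01 beside 0.02. In MYC against control 1 was called, Nrp1, or 3.33%, against 0.365% of all genes, of which 0.101% were higher and 0.264% lower, and the medians were 0.12 and 0.03. In Her2 against control edgeR called none of the 30, against 0.021% of all genes, of which 0.0126% were higher and 0.00839% lower, and the medians were 0.16 and -0.01. At an unadjusted p under 0.05 the counts in MYC against Her2, MYC against control and Her2 against control were 15, 8 and 11 of 30, against 19.1%, 13.9% and 8.8% of all genes tested. In Her2 against control DESeq2 called 4 members and 2.53% of all genes to which it gave an adjusted p, and limma on TPM called no member and 0% of all genes. MYC and Her2 libraries are each in 2 of these comparisons, as are the control libraries. In MYC against Her2, limma on TPM called only Nrp2 of the 7 and 1.21% of all genes, and the fit without population as a block called none of them, nor Nrp1 in MYC against control.

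Both neuropilins were lower in MYC than in Her2 cells. Nrp1 averaged 12.4 ± 8.75 CPM in MYC, 23.4 ± 11.4 CPM in Her2 and 36.6 ± 21.9 CPM in control libraries (SD, n = 3 each). The arms overlap when populations are pooled, and within each population MYC was lowest and control highest. The log2 fold change was -1.05 (SE 0.20, adjusted p = 0.0206) in MYC against Her2 and -1.61 (SE 0.20, adjusted p = 0.0224) in MYC against control. The first call was lost without L MYC, L Her2, bi MYC or bi Her2 cells (-1.01 to -0.97), and the second without L MYC, bi control or bi MYC cells (-1.58 to -1.49). Nrp2 averaged 179 ± 32.4 CPM in MYC and 470 ± 139 CPM in Her2 libraries, with no overlap (log2 fold change -1.38, SE 0.24, adjusted p = 0.0152). That call was lost without L MYC, L Her2 or bi MYC cells (-1.36 to -1.32). In control libraries Nrp2 averaged 253 ± 34.7 CPM, below all Her2 and above all MYC libraries on average. Its log2 fold change in edgeR was 0.84 (SE 0.24, adjusted p = 0.256) in Her2 against control. In MYC against control it was -0.53 (SE 0.24, adjusted p = 0.353), and neither was called.

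Sema7a, the lipid-anchored ligand of Plxnc1 and of integrins with a beta 1 chain, had the widest range of the 31 members between its lowest and its highest library. It read 0.118, 0.216 and 0.0686 CPM in bi, L and B MYC cells, 7.35, 26.7 and 1.02 CPM in bi, L and B Her2 cells, and 1.53, 0.533 and 3.98 CPM in bi, L and B control cells. The MYC values rest on only 6, 17 and 3 reads in bi, L and B cells. The sizes of its range and of its fold changes against MYC cells are therefore uncertain. The 3 MYC libraries were the 3 lowest and did not overlap with Her2 or with control. In edgeR the log2 fold change came to -6.16 (SE 1.26, adjusted p = 0.0276) in MYC against Her2. Against control it was -4.18 (SE 1.25, adjusted p = 0.162), which did not pass. The MYC against Her2 call was lost without L Her2 cells (-4.4) or without B MYC, L MYC, bi MYC or bi Her2 cells (-6.34 to -6), and the value was -7.05 without B Her2 cells. Its receptor Plxnc1 ran from 0.363 to 0.723 CPM and was called in no comparison, while Itgb1, the integrin chain, ran from 369 to 1290 CPM.

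Plxna4, a receptor of Sema6a and Sema3a, read 1.12, 0.622 and 1.07 CPM in bi, L and B MYC cells, 2.74, 5.64 and 6.02 CPM in bi, L and B Her2 cells, and 0.885, 0.754 and 0.906 CPM in bi, L and B control cells. The 3 Her2 libraries stood above the other 6. The log2 fold change was -2.35 (SE 0.38, adjusted p = 0.0124) in MYC against Her2 and 2.47 (SE 0.38, adjusted p = 0.0629) in Her2 against control, where the test was not passed. The call was lost without L MYC cells (-2.03). The antisense genes Plxna4os1, Plxna4os2 and Plxna4os3 lie over Plxna4, and other antisense genes overlap Plxna1, Plxnb1, Nrp2, Sema5a and Sema3e. The libraries were stranded, but whether counting used the strand is not given in the sources used here, so reads of the 2 strands may be mixed.

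Sema4f averaged 6.55 ± 5.49 CPM in MYC and 19.8 ± 19 CPM in Her2 libraries, and within each population the MYC library was the lower of the pair (log2 fold change -1.67, SE 0.31, adjusted p = 0.0207). The call was lost without B MYC, L MYC, L Her2 or bi MYC cells (-1.74 to -1.56). Plxnd1 averaged 81.1 ± 43.2 CPM in MYC and 32.4 ± 29 CPM in Her2 libraries, higher in MYC within each population (log2 fold change 1.61, SE 0.33, adjusted p = 0.0284). That call was lost without L Her2 (1.13), L MYC (1.47) or bi MYC cells (1.48). Sema6a averaged 83.7 ± 73 CPM in MYC and 28.5 ± 21.3 CPM in Her2 libraries, with a log2 ratio of 0.31 in B, 1.19 in bi and 1.93 in L cells (log2 fold change 1.19, SE 0.27, adjusted p = 0.0404). Its call was lost without B control, L control or any one of the L and bi oncogene libraries (0.81 to 1.25). The Sema6a call was also lost with offsets from effective lengths and with only the 6 libraries of both arms. Fibroblast markers summed to 39.9 to 223 CPM in MYC, 28.6 to 122 CPM in Her2 and 41.7 to 194 CPM in control libraries, ranges that overlap. Within each population the sum was higher in the MYC than in the Her2 library. It was 86 against 47.2 CPM in bi, 39.9 against 28.6 CPM in L and 223 against 122 CPM in B cells. Of the 8 tested fibroblast markers 3 (Col3a1, Pdgfrb and Fbln1) were called higher in MYC than in Her2 and none lower. That is 37.5%, against 4.57% of all genes. Among the 8, Dcn read lower in MYC in each population: 2.17 against 2.42 CPM in bi, 0.178 against 1.47 CPM in L, 25 against 25.5 CPM in B. Thy1 was lower in MYC in bi and B, and Col1a1 and Col1a2 in bi. Plxnd1 and Sema6a have the direction of the sum, and the other 5 called members the opposite one. Basal markers summed to 1960 to 6570 CPM in MYC, 1920 to 4020 CPM in Her2 and 4120 to 4990 CPM in control libraries, so that all Her2 libraries lay below all control libraries. The part of these sums in the arm results was not tested.

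**Figure D5:**
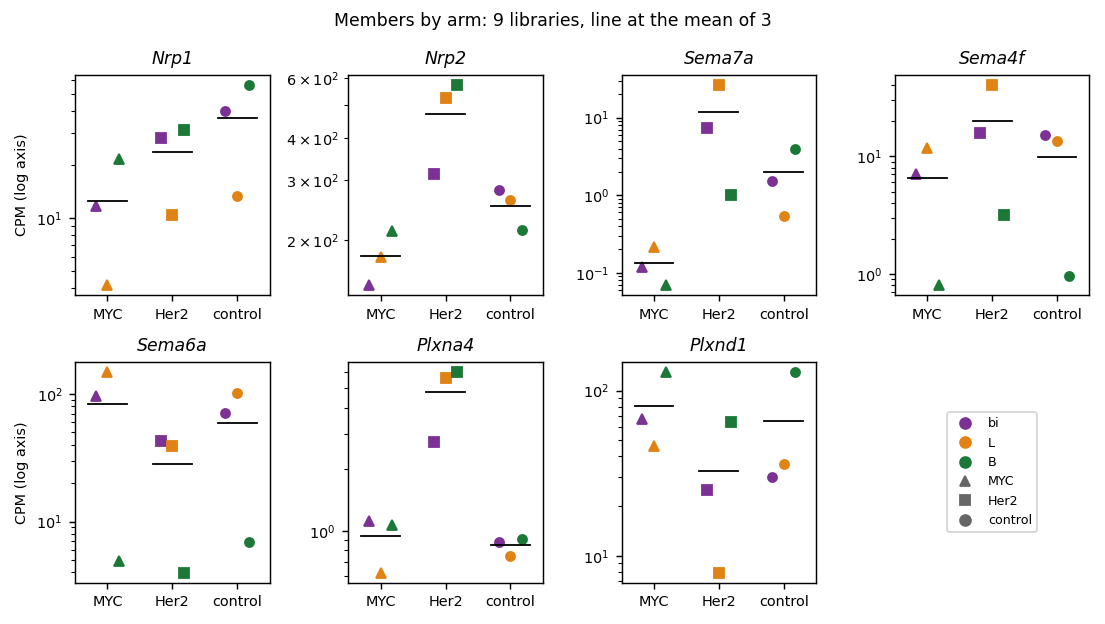
CPM (log axes, one scale per panel) of the 7 members called in an arm comparison, by arm MYC, Her2 and control, with colours for the populations, shapes for the arms and a line at the mean of 3 libraries. The 3 MYC libraries of Nrp2 and Sema7a lie below all 3 Her2 libraries, and the 3 Her2 libraries of Plxna4 lie above the other 6.

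Promoter sequences are shown for 3 of the 5 members lower in MYC than in Her2 cells, the neuropilin pair and Sema4f. Each is the RefSeq window of GRCm38.p6 from 250 bases before to 50 bases after an annotated start, read 5′ to 3′ on the gene's strand. Capitals mark matches to CAGGTG or its reverse complement CACCTG, an E-box letter order. The windows are Nrp2 at chr1:62703067-62703366 on the plus strand, Nrp1 at chr8:128358823-128359122 on the plus strand and Sema4f at chr6:82939720-82940019 on the minus strand.
Nrp2: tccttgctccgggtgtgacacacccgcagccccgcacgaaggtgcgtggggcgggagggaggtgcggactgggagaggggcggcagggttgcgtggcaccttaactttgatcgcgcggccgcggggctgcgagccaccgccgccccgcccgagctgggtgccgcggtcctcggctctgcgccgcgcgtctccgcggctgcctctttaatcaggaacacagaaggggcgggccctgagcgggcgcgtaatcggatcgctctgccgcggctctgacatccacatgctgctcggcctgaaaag
Nrp1: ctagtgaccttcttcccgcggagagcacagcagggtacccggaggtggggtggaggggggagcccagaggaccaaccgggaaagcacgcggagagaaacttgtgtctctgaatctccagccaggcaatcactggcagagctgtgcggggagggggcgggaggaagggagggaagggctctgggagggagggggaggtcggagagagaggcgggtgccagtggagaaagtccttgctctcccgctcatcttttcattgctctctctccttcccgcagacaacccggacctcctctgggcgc
Sema4f: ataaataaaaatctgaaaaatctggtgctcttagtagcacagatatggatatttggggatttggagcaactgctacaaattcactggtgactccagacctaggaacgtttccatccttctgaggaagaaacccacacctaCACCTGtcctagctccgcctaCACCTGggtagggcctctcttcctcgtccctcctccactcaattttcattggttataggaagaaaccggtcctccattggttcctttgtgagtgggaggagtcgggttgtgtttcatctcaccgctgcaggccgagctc

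Sema4f held 2 matches, 110 and 89 bases before the start. The other windows, with that of Sema7a, held no match to CAGGTG, to CACGTG (the E-box bound by MYC with its partner MAX) or to TGANTCA (the AP-1 letters) on either strand, and no window was given for Plxna4. CAGGTG was found in 22.6% of the 27025 mouse genes with windows and in 5 of the 26 members that have one (Plxnb2, Sema3d, Sema4c, Sema4f and Sema6d). CACGTG was found in 8.09% of genes and 3 members (Sema3e, Sema4b and Sema6d), and TGANTCA in 8.97% of genes and 3 members (Sema4c, Sema4d and Sema6b). GC content was 70.7% for Nrp2, 64% for Nrp1, 67.3% for Sema7a and 48.7% for Sema4f, beside a median of 52.7% over all windows. A match is a run of letters, and no binding was measured.

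The 9 tested members called in no comparison were Plxna2, Plxnb2, Plxnc1, Sema3f, Sema4c, Sema4d, Sema4g, Sema5b and Sema6b. Plxna2, a receptor of Sema6a, ran from 9.55 to 49.1 CPM with its lowest value in L MYC cells. Sema4c, a ligand of Plxnb2, ran from 37.1 to 72.8 CPM, Sema4g from 2.2 to 9.87 CPM, Sema6b from 0.355 to 3.2 CPM and Sema5b from 0.0383 to 0.263 CPM. Sema3g lay between 0.0229 and 0.127 CPM.

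Some ligands and their receptors can be set side by side for L against B, and these pairs do not cover the family. Sema4d and its receptor Plxnb1 had log2 fold changes of 0.41 (SE 0.19, not called) and 1.57 (called). Sema6a had 4.02 (called), and its receptors Plxna2 and Plxna4 had -1.15 and -0.34 (neither called). Sema3e had 1.78 and its receptor Plxnd1 -2.06, both called and opposite in sign. Sema3a, with -1.51, and Nrp1, with -2.03, were both lower. Sema6d and Plxna1, at -3.51 and -0.95, were both lower as well. Sema3c, at -1.69, was lower like its receptors Plxnd1 and Nrp1. Nrp2, the other neuropilin that Sema3c signals through, had -0.05 (SE 0.23, not called). Sema3d, at 4.2, had the opposite sign to Plxnd1 and Nrp1. Sema5a, at 1.29, and the barely read Plxnb3, at 2.07, were both higher.

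Genes that work with the family were counted in 3 lists. Of all genes tested, the share called was 20.8% in L against B, 13% in bi against B, 0.751% in bi against L and 4.57% in MYC against Her2, and the counts of each list stand against these shares. Of 17 tested genes among 20 co-receptors and other semaphorin partners, 11 were called in L against B (7 higher, 4 lower), 4 in bi against B (all higher) and 2 in MYC against Her2 (both lower), which is 64.7%, 23.5% and 11.8% of the list. The list's median log2 fold changes there were 0.32, 0.45 and -0.07, beside 0.04, 0.03 and 0.02 over all genes. L1cam, an adhesion molecule that joins Nrp1 in the Sema3a receptor, was higher in both EpCAM-high populations, with a log2 fold change of 3.94 (SE 0.37) in bi against B and 4.15 (SE 0.38) in L against B. Flt4, the receptor of Vegfc that pairs with Nrp2, had 91 reads in bi, 474 in L and 2 in B cells, a ratio of 29.9 in bi against B (95% exact binomial interval 8.04 to 250) and 161 in L against B (44.3 to 1330), for counting error only. Vegfc, at -1.38 (SE 0.29), and Itga1, at -1.06 (SE 0.22), led the falls in L against B. The calls in MYC against Her2 were Vegfa at -1.11 (SE 0.23) and Erbb2 itself at -2.24 (SE 0.31), the gene whose product the Her2 arm carries.

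Of 37 tested genes among 39 plexin effectors, 12 were called in L against B (4 higher, 8 lower), 9 in bi against B (2 higher, 7 lower), 1 in bi against L and 2 in MYC against Her2 (1 higher, 1 lower), which is 32.4%, 24.3%, 2.7% and 5.41% of the list. The share in MYC against Her2 is close to the 4.57% of all genes. The medians were -0.24 in L against B, -0.21 in bi against B and -0.09 in MYC against Her2. Dpysl5, a collapsin response mediator family gene, was the largest rise, at 4.6 (SE 0.49) in bi against B and 5.09 (SE 0.49) in L against B, and Dpysl2 in bi against B (0.64, SE 0.18) and Mras in L against B (0.87, SE 0.23) came second. Its relative Dpysl3 had -2.8 (SE 0.24) and Mical2, an actin-oxidising enzyme of the family that binds plexin A, had -1.7 (SE 0.26) in L against B. Mical1 had -1.78 (SE 0.28) and Rnd3, a small GTPase, -1.17 (SE 0.18) in bi against B. Dpysl3 was higher in bi than in L (1.68, SE 0.23). In MYC against Her2, Rnd3 was higher (1.13, SE 0.18) and Rnd1, a GTPase that binds plexins directly, lower (-1.75, SE 0.42).

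Of 35 tested genes among 38 other guidance ligands and receptors, 12 were called in L against B (5 higher, 7 lower), 11 in bi against B (7 higher, 4 lower), 2 in bi against L (both higher) and 3 in MYC against Her2 (2 higher, 1 lower), which is 34.3%, 31.4%, 5.71% and 8.57% of the list. The medians were 0.27 in L against B, 0.36 in bi against B and -0.13 in MYC against Her2, and they are the same with Ephb1 at its bound. Ephb1 had no read in B cells, 1917 reads in bi and 821 in L cells, which is at least 420-fold higher in bi and at least 186-fold higher in L, with the floor at 3 reads over the B group. Epha1, another ephrin receptor, was higher at 2.9 (SE 0.30) in bi and 3.39 (SE 0.31) in L against B. Slit3, a Robo ligand, was lower at -2.49 (SE 0.28) in bi and -5.16 (SE 0.32) in L against B, and higher in bi than in L at 2.66 (SE 0.29), as was Ephb2 at 1.7 (SE 0.22). Ntn4 fell by 1.41 on the log2 scale in bi against B (SE 0.17), and Unc5b by 2.4 in L against B (SE 0.43). In MYC against Her2, Ntn4 (1.7, SE 0.17) and Robo1 (0.8, SE 0.17) were higher and Epha2 lower (-2.04, SE 0.47). None of the 3 lists had a gene called in an oncogene arm against control, where edgeR called 0.365% (MYC) and 0.021% (Her2) of all genes. At an unadjusted p under 0.05 there were 16 of the 89 tested list genes in each comparison, against 13.9% of all genes in MYC against control and 8.8% in Her2 against control. DESeq2 called 1 list gene in MYC against control, beside 5.15% of all genes, and 10 in Her2 against control, beside 2.53% of all genes.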

How the data were processed

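Each deposited file lists, for every gene, an estimated count and a TPM value that the authors computed with Salmon 0.9.1 against mm10, per the file headers and the submitters' processing notes. Lengths in bases, full and effective, stand beside them. The annotation release and the strand setting are not given in the sources used here. Per the labels' protocols, libraries were stranded and depleted of ribosomal RNA, while the molecule label reads polyA RNA.

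Symbols were joined by Ensembl identifier to GENCODE M21 of the same build, 53544 with the version and 563 without, and 174 had none. All 31 members matched. The counts were rounded, kept where filterByExpr passed them with the arm as group (at least 10 reads, 15 in total), and scaled by TMM. An additive quasi-likelihood model of population and arm was fitted to all 9 libraries in edgeR 4.0.16 (R 4.3.3), with 4 residual degrees of freedom, so interaction between both factors and noise of single libraries fall into 1 residual. Adjusted p-values are Benjamini-Hochberg over all 23834 genes tested, and the standard error is the size of the log2 fold change over the square root of F. Ratios between single libraries use log2 CPM with a prior count of 2 and have no test. Where a group had no read, 3 reads were put in its place as a floor, which like the intervals covers counting error only. The fit was tested on simulated counts.

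Alternatives were RLE scaling, DESeq2 1.42.0, limma 3.58.1 on log2(TPM + 1) for genes with a TPM of at least 0.1 in 3 libraries, offsets from the deposited effective lengths, no filter, no block, the 6 libraries of both groups, and each library, arm or population left out. Values in every library are given for members called in at least 1 of 6 comparisons and for the leading 2 of each role per length. Of each pathway list the 2 largest rises and the 2 largest falls among called genes are named for each comparison. Promoter windows are from RefSeq on GRCm38.p6, and 26 of the 31 members have one. The members, lists and tests were chosen with earlier results of these data known.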

Additional observations from a re-analysis of the deposited data

Results flagged for a closer look

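For 2 members, single-library ratios pointed in opposite directions by more than 1 log2 unit in different populations or arms. Each ratio compares 1 library with 1 library, and the differences between them were not tested.

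Sema7a had a log2 ratio for bi against B of 2.82 in Her2 cells and -1.37 in control cells. For L against B it was 4.68 in Her2 cells and -2.83 in control cells, and for bi against L -1.86 in Her2 cells and 1.47 in control cells. For Her2 against control it was 5.57 in L cells and -1.94 in B cells. The Her2 libraries thus had more Sema7a than control in L and less in B. Sema6d had a log2 ratio for Her2 against control of 1.42 in L cells and -2.38 in B cells, and for MYC against Her2 of -1.3 in L cells and 1.51 in B cells.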

How the results depend on the processing

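No direction of the 36 called member results turned in any of the 19 alternative fits of its comparison. Of the 36, 13 stayed called whichever library, arm or population was left out, and 11 under every alternative. Those 11 were Sema4f, Sema6a and Plxnb1 in bi against B, and Sema3c, Sema3d, Sema4b, Sema4f, Sema5a, Sema6a, Plxnb1 and Nrp1 in L against B.

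The count of members called in L against B was 17, and 12 to 19 in the alternatives (14 to 18 with 1 library left out). In bi against B it was 10: limma gave 4, no block 6, the fit without the Her2 arm 5, and leaving out 1 library 6 to 10. In bi against L it was 1: DESeq2 gave 4, no filter 4, limma 0, no block 0, and leaving out 1 library 0 to 2. In MYC against control it was 1: DESeq2 gave 6, no filter 6, the 6 libraries of both arms 3, no block 0, and leaving out 1 library 0 to 3, while without the B, L or bi population it was 2, 0 and 0. In Her2 against control it was 0: RLE scaling gave 1, DESeq2 4, no filter 6, the 6 libraries 1, the fit without the bi population 2, and leaving out 1 library 0 to 1. In MYC against Her2 it was 7: DESeq2 gave 12, no filter 12, limma 1, no block 0, the fit without the L population 1, and leaving out 1 library 0 to 8, with 0 without L MYC cells and 1 without L Her2 or bi MYC cells. The count over all genes also changed between these settings. In MYC against Her2, beside 1089, it was 1874 in DESeq2, 2089 with no filter, 323 in limma and 6 with no block. It was 256 without the L population, 384 without L MYC, 278 without L Her2 and 217 without bi MYC cells. In MYC against control it was 844, 34 and 8 without the B, L or bi population. In Her2 against control it was 125 without the bi population. The cause of these changes was not tested.

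Over all genes tested, the counts and their range over the alternatives were 3094 (1430 to 3796) in bi against B, 4953 (2820 to 5574) in L against B, 179 (2 to 698) in bi against L, 87 (4 to 966) in MYC against control, 5 (0 to 619) in Her2 against control and 1089 (6 to 2089) in MYC against Her2. For the 3 pathway lists together they were 24 (9 to 29), 35 (23 to 36), 3 (0 to 10), 0 (0 to 3), 0 (0 to 11) and 7 (0 to 16) in the same comparisons. By setting, all genes called in bi against L were 664 in DESeq2, 698 with no filter, 2 in limma and 20 with no block. In MYC against control they were 966 in DESeq2, 944 with no filter, 680 with the 6 libraries and 4 with no block. In Her2 against control they were 32 with RLE scaling, 509 in DESeq2, 619 with no filter and 196 with the 6 libraries. In bi against B they were 1850 in limma, 1430 with no block and 2198 without the Her2 arm. RLE in place of TMM moved the median of all genes by at most 0.02 log2 units. Libraries were matched by arm or population in the additive model, and the fits without that block are the ones given above as no block. Pairing by replicate number was not possible because each population and arm has 1 library.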
